A study of Mus musculus with 12 samples.

Results

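Transcripts of 10 enzymes of the antioxidant and glutathione systems were followed across terminal erythroid differentiation in mouse bone marrow: Sod1, Sod2, Cat, Prdx1, Prdx2, Gpx1, Gpx4, Gclc, Gclm and Gsr. They were chosen by name, as the rows of the deposited expression table that carry these symbols, and are 10 of its 29838 genes. RNA was sequenced from 4 erythroblast stages, with 3 libraries each: proerythroblasts (Pro), basophilic (Baso), polychromatic (Poly) and orthochromatic (Ortho) erythroblasts. All libraries came from wild-type (WT) bone marrow. According to the methods, the donors were male C57BL/6 mice aged 8 weeks, and cells were depleted of CD45 positive cells on beads and then sorted as live cells negative for CD45, CD11b and GR1, a gate meant to leave out neutrophils and other white cells. Pro were gated as CD44 high, Ter119 low cells, and the later stages were gated among Ter119 positive cells by falling CD44 and cell size, so a stage is a gate on a continuum. Ortho replicates 2 and 3 carry only a general erythroblast term as their cell type, and their titles place them in Ortho. Nothing in the labels says that the replicates came from separate animals, so the p-values measure only the spread between these libraries.

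Red cells carry oxygen on heme iron, and hemoglobin that oxidizes releases superoxide. Superoxide dismutases turn superoxide into hydrogen peroxide, which catalase, peroxiredoxins and glutathione peroxidases then remove. The first and rate-limiting step of glutathione synthesis needs a ligase with a catalytic subunit (Gclc) and a modifier subunit (Gclm), and glutathione reductase (Gsr) uses NADPH to return oxidized glutathione to its reduced form.

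The sequences that set some of these genes apart are shown first. Gpx1 and Gpx4 are selenoproteins, and each was found to have 1 TGA codon within its reading frame, which is read as selenocysteine, the catalytic residue. No such codon stood before the stop codon in the other 8 genes. The windows are 63 bases of coding sequence of the principal GENCODE M21 transcripts, 5′ to 3′, with the TGA in capitals. In Gpx1 it is codon 47, in exon 1 at chr9:108339451-108339453 (mm10, plus strand), and in the chosen Gpx4 transcript it is codon 73, in exon 3 at chr10:80054737-80054739 (mm10, plus strand).
Gpx1: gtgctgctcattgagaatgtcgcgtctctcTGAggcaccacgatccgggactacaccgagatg
Gpx4: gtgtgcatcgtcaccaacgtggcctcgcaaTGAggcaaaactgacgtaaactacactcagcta

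A second set of sequences holds the core of the antioxidant response element, TGACNNNGC, the letters bound by Nfe2l2 with a small Maf protein. It was searched on both strands of RefSeq promoters (250 bases before to 50 after the start site, GRCm38.p6), which were matched for 8 of the 10 genes (all but Gclc and Gsr). Prdx1, Sod1 and Gclm held 1 match each, and 12.4% of all 32851 promoters, or 14.7% of the 11294 promoters of tested genes, held at least 1. The 3 windows of 49 bases are shown because they hold these matches. They are on the plus strand, with the core in capitals as its reverse complement. They lie at chr4:116685446-116685494 for Prdx1, chr16:90220686-90220734 for Sod1 and chr3:122245403-122245451 for Gclm. In Sod1 the core overlaps a match to CCNCNCCC, the letters of Kruppel-like factors, which stood in the promoters of all 8 matched genes, in 66.7% of the promoters of tested genes and in 49.5% of all promoters. None of the 8 held the GATA letters AGATAA or the FOXO letters GTAAACA, found in 6.81% and 2.60% of the promoters of tested genes and in 11.2% and 3.65% of all promoters. These matches describe letters only.
Prdx1: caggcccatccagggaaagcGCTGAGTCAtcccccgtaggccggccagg
Sod1: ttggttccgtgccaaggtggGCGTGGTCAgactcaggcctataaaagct
Gclm: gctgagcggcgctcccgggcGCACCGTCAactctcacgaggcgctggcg

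Values are FPKM as deposited, the mapped fragments of a gene divided by its length and by all mapped fragments of its library. A level is thus a share of the library, set per length. Fold changes were fitted with limma on log2(FPKM + 1) over the 12994 genes that reached an FPKM of 1 in 3 or more libraries, a filter that all 10 genes passed. A gene rose or fell where its Benjamini-Hochberg adjusted p was under 0.05. Hemoglobin genes took 8.45% of all FPKM in Pro. Their share was 35.1% in Baso and 36.6% in Poly, and 49.6% in Ortho. The median gene stood at -0.23, -0.20 and -0.42 log2 in Baso, Poly and Ortho compared with Pro. With the hemoglobin genes left out and the rest rescaled, these medians became 0.03, 0.08 and -0.03. The share of called genes that were higher moved from 26.2% to 52.6% in Baso vs Pro, from 35.3% to 56.4% in Poly vs Pro, from 29.9% to 49.7% in Ortho vs Pro, from 53.3% to 64.5% in Poly vs Baso and from 16.9% to 37.0% in Ortho vs Poly. The calls of the 10 genes that change with this rescaling are given below. All 10 erythroid defining genes passed the filter, and their summed FPKM was 2247 to 2866 in Pro and 5245 to 6419 in the later stages. Members of this list went both ways. Mean FPKM of Epor, Klf1 and Gata1 was 149, 320 and 131 in Pro and 46.5, 69.3 and 30.9 in Ortho. That of Alas2 and Slc4a1 was 336 and 582 in Pro and 2221 and 1672 in Ortho. All 12 neutrophil marker genes were also detected, with none at 0. Their summed FPKM was 7461 to 9284 at the Pro stage, and in Baso 12775 to 14965. It was 16462 to 19508 in Poly, and 14697 to 18191 in Ortho. Macrophage, B cell, T and NK cell, and megakaryocyte lists each summed to at most 282.3 FPKM. In bulk RNA of sorted cells, fewer cells of a type and less RNA per cell cannot be told apart.

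Cat, Gpx1 and Gsr rose from Pro to Ortho, while Gclc, Sod1, Gpx4, Sod2, Prdx2 and Prdx1 fell, and Gclm did not pass the test. Cat rose most, 6.63-fold, and Sod1 and Gclc fell most, to 0.304 and 0.315 of their Pro level. Thus 3 of 10 genes were higher and 6 lower in Ortho vs Pro, where 22.7% of all tested genes were higher and 53.2% lower. In Baso vs Pro 4 were higher and 4 lower (all genes: 14.9% and 42.1%), and in Poly vs Pro 3 were higher and 4 lower (23.3% and 42.7%). These comparisons share the Pro libraries. Between neighbouring stages, none passed in Poly vs Baso (6.58% and 5.77% of all genes), and 2 were higher and 5 lower in Ortho vs Poly (4.43% and 21.7%). With a log2 change of at least 1 also required, 2 were higher and 4 lower in Ortho vs Pro (6.33% and 23.8% of all genes), 1 (Cat) and 2 (Gclc and Gpx4) in Ortho vs Poly (1.05% and 4.81%), 1 (Cat) and 1 (Sod1) in Poly vs Pro (3.59% and 12.8%), and none in Baso vs Pro (1.82% and 8.54%). With hemoglobin left out, 5 were higher and 2 lower in Baso vs Pro, where 27.1% and 24.4% of all genes were, and 6 and 2 in Poly vs Pro (35.5% and 27.4%). On that scale 3 were higher and 4 lower in Ortho vs Pro (34.3% and 34.8%), 1 (Gsr) and none in Poly vs Baso (8.70% and 4.79%), and 2 and 3 in Ortho vs Poly (9.54% and 16.2%). Ortho and Pro libraries did not overlap for 9 of the 10 genes, and for 76.8% of all tested genes. Compared with Pro, the median log2 change of the 10 genes was 0.06 for Baso, -0.15 for Poly and -0.47 for Ortho, beside -0.23, -0.20 and -0.42 for all genes. Together the 10 genes made up 0.433% ± 0.043 (SD, n = 3) of FPKM in Pro and 0.401% ± 0.0046 in Baso. In Poly their share was 0.351% ± 0.012, and in Ortho 0.266% ± 0.012.

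**Figure D1:**
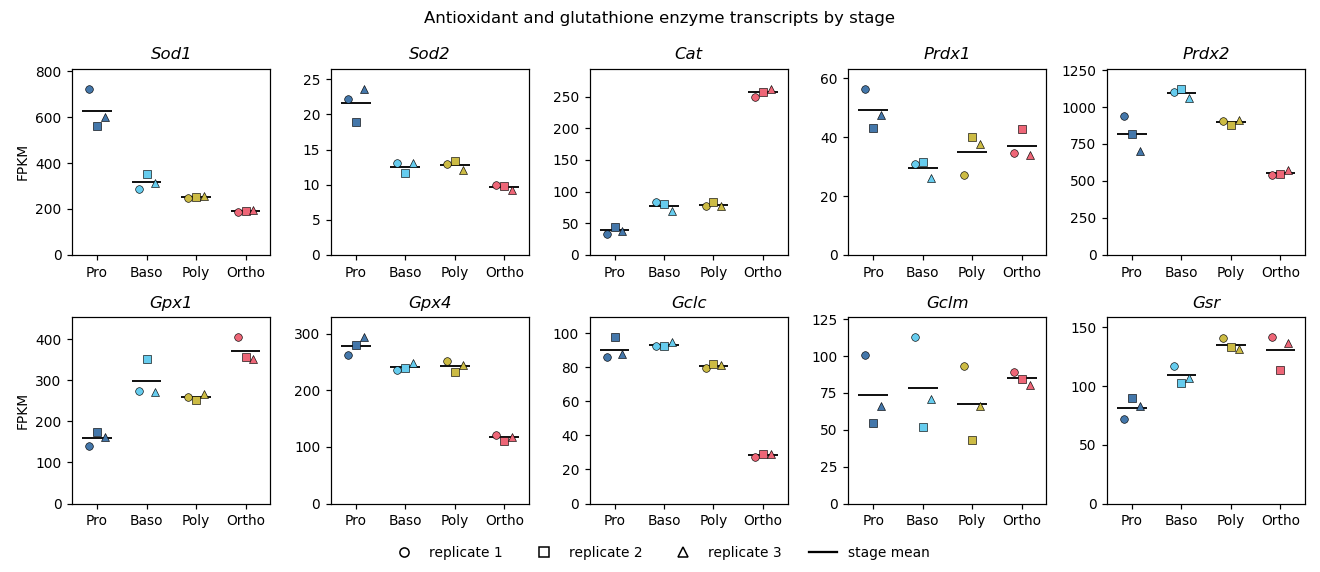
FPKM of the 10 genes in each library (points, shaped by replicate number) at the 4 stages, with the stage mean as a line and each axis starting at 0. Cat is highest in Ortho, with 3 libraries between 250.04 and 263 FPKM, Gclc and Gpx4 are lowest there, Sod1 is highest in Pro, and Gclm spreads from 43.2 to 93.0 within Poly.

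The levels spanned a wide range at every stage. In Pro the order by mean FPKM was Prdx2 (819), Sod1 (627), Gpx4 (279), Gpx1 (159.6), Gclc (90.4), Gsr (81.6), Gclm (73.6), Prdx1 (49.1), Cat (38.7) and Sod2 (21.6). In Ortho it was Prdx2 (555), Gpx1 (372), Cat (257), Sod1 (191), Gsr (131), Gpx4 (117), Gclm (84.8), Prdx1 (37.1), Gclc (28.5) and Sod2 (9.68). Prdx2 was thus first and Sod2 last at both ends, while Cat moved from ninth to the third place and Gclc from the fifth to ninth. Among all tested genes, Prdx2 stood above 99.3% in Pro and 99.4% in Ortho, and Sod2 above 69.8% and 58.1%.

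Sod1 (ENSMUSG00000022982, chr16:90220754-90226329, 5 exons) encodes the cytosolic copper and zinc superoxide dismutase. Its FPKM was 724, 559 and 599 in the 3 Pro libraries and 288, 352 and 314 in Baso, then 249.6, 253 and 254 in Poly and 188, 191 and 194 in Ortho. The levels went down from stage to stage with no overlap between any pair of stages. Sod1 fell in Baso vs Pro (log2 fold change -0.97, SE 0.098, adjusted p = 1.13e-05), and in Ortho vs Pro it fell to 0.304 of the Pro level (log2 fold change -1.70, SE 0.098, adjusted p = 4.58e-08), 1.28 log2 further than the median gene. The step from Baso to Poly did not pass (-0.33, adjusted p = 0.0518). With the replicate numbers as a block it passed over the 3 later stages (adjusted p = 0.0121), not over all 12 libraries (adjusted p = 0.0688). The pairing of replicate numbers, here and for the genes below, was taken from the values alone. The step from Poly to Ortho passed (-0.40, adjusted p = 0.00933), but not with the hemoglobin genes left out (-0.26, adjusted p = 0.089). An opposite-strand gene, Scaf4, overlaps Sod1, and the strand setting of the counting is not given in the sources used here.

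Sod2 (ENSMUSG00000006818, chr17:13006846-13040063, 5 exons) encodes the manganese dismutase of mitochondria. Its FPKM was 22.2, 18.9 and 23.7 in Pro and 13.0, 11.6 and 13.0 in Baso, then 13.0, 13.4 and 12.1 in Poly and 10.002, 9.80 and 9.24 in Ortho. Every later library lay below every Pro library, Baso and Poly overlapped, and Ortho lay below both. Sod2 fell to 0.581 of its Pro level in Baso (log2 fold change -0.73, SE 0.091, adjusted p = 4.6e-05) and to 0.448 in Ortho (log2 fold change -1.08, SE 0.091, adjusted p = 7.94e-07). Baso and Poly means, 12.6 and 12.8, differed by 0.03 log2 (95% interval -0.17 to 0.23, adjusted p = 0.859). The fall from Poly to Ortho (-0.37, adjusted p = 0.00905) did not pass with the hemoglobin genes left out (-0.24, adjusted p = 0.0647), nor did that from Baso to Ortho (-0.34, adjusted p = 0.00952, against -0.18, adjusted p = 0.109).

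Cat (ENSMUSG00000027187, chr2:103453849-103485160, minus strand, 13 exons) encodes catalase, the peroxisomal heme enzyme that splits hydrogen peroxide. Its FPKM was 33.6, 44.5 and 38.1 in Pro and 83.7, 80.4 and 69.7 in Baso, then 76.5, 83.1 and 77.6 in Poly and 250.04, 257 and 263 in Ortho. The Pro libraries were below all others, Baso and Poly overlapped, and every Ortho library was at least 3 times the mean of Poly. Cat rose 2.01-fold in Baso vs Pro (log2 fold change 0.99, SE 0.1, adjusted p = 1.12e-05), and 3.25-fold in Ortho vs Poly (log2 fold change 1.69, SE 0.1, adjusted p = 2.22e-07). The Poly and Baso means, 79.1 and 77.9, differed by 0.02 log2 (95% interval -0.20 to 0.24, adjusted p = 0.906). The rises in Ortho passed under each of the 23 alternatives for Ortho vs Pro, between 2.34 and 3.19 log2 with all libraries. The mean of the summed neutrophil markers went from 8374 to 13922 FPKM from Pro to Baso and from 18305 to 16844 from Poly to Ortho, the steps at which Cat rose, and their part in the result was not tested.

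Prdx1 (ENSMUSG00000028691, chr4:116685544-116700822, 6 exons) encodes a peroxiredoxin found in most cells. Its FPKM was 56.6, 43.0 and 47.7 in Pro and 31.0, 31.7 and 26.3 in Baso, then 27.3, 40.2 and 37.8 in Poly and 34.8, 42.7 and 33.9 in Ortho. Pro libraries were above all later ones, though the lowest Pro library (43.0) was close to the highest Ortho library (42.7), and the later stages overlapped in part. Prdx1 fell to 0.603 of Pro in Baso (log2 fold change -0.71, SE 0.15, adjusted p = 0.00217) and to 0.756 in Ortho (log2 fold change -0.39, SE 0.15, adjusted p = 0.0348). The fall in Ortho passed in 15 of 23 alternatives, was lost without any 1 of Pro 1, Pro 3, Ortho 1 or Ortho 3, and stood at 0.090 with hemoglobin left out (adjusted p = 0.641), while the fall in Baso stood at -0.40 (adjusted p = 0.0625). Prdx1 also fell in Poly vs Pro (-0.48, adjusted p = 0.0154), but not with hemoglobin left out (-0.14, adjusted p = 0.471), without Pro 1 (adjusted p = 0.0624) or without Poly 1 (adjusted p = 0.0666). Ortho vs Baso, 0.31 (adjusted p = 0.115), passed with hemoglobin left out (0.49, adjusted p = 0.0287).

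Prdx2 (ENSMUSG00000005161, chr8:84969587-84974834, 6 exons) encodes the main peroxiredoxin of red cells and had the highest level of the 10 genes at every stage. Its FPKM was 939, 817 and 699 in Pro and 1102, 1125 and 1064 in Baso, then 908, 876 and 913 in Poly and 543, 550.3 and 571 in Ortho. Baso libraries were the highest and Ortho the lowest, with no overlap with other stages, while Poly lay within the range of Pro. Prdx2 rose 1.34-fold in Baso vs Pro (log2 fold change 0.43, SE 0.096, adjusted p = 0.00258). It then fell to 0.617 of its Poly level in Ortho (log2 fold change -0.70, SE 0.096, adjusted p = 0.00017), and stood at 0.678 of its Pro level (log2 fold change -0.55, adjusted p = 0.000272). Relative to the median gene the Ortho vs Pro change was -0.13, and with hemoglobin left out it was -0.06 (adjusted p = 0.644), while the fall from Poly to Ortho still passed (-0.55, adjusted p = 0.00248). The step from Baso to Poly, -0.29, did not pass (adjusted p = 0.0735), but did with the replicate block over the later stages (adjusted p = 0.0074). The rise in Baso vs Pro did not pass with every library brought to equal total FPKM (0.25, adjusted p = 0.0554). Poly vs Pro was 0.14 (adjusted p = 0.203), but Prdx2 was higher in Poly with hemoglobin left out (0.49, adjusted p = 0.00188), with each library centred on its median (0.39, adjusted p = 0.00491) and without Pro 1 (0.25, adjusted p = 0.0119). Rnaseh2a and Junb overlap Prdx2 on the opposite strand.

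Gpx1 (ENSMUSG00000063856, chr9:108338903-108340343, 2 exons) encodes the cytosolic glutathione peroxidase, a selenoprotein. Its FPKM was 141, 175 and 163 in Pro and 274, 353 and 271 in Baso, then 259.7, 253 and 268 in Poly and 405, 358 and 351 in Ortho. Pro libraries were the lowest, and Baso 2 reached the range of Ortho while the other Baso libraries were close to Poly. Gpx1 rose 1.88-fold in Baso vs Pro (log2 fold change 0.90, SE 0.11, adjusted p = 4.75e-05), 1.43-fold in Ortho vs Poly (log2 fold change 0.51, SE 0.11, adjusted p = 0.00483) and 2.33-fold in Ortho vs Pro (log2 fold change 1.22, adjusted p = 1.61e-06). The Ortho vs Pro rise passed under each of the 23 alternatives. The difference between Ortho and Baso, 0.32 (adjusted p = 0.0373), was less firm. It did not pass without any 1 of Baso 1, Baso 3, Poly 1, Ortho 1, Ortho 2 or Ortho 3 (adjusted p of 0.0502 to 0.137), with no filter (0.0977), with equal totals (0.347) or with only those stages in the fit (0.0580), and with hemoglobin left out it was 0.49 (adjusted p = 0.00298).

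Gpx4 (ENSMUSG00000075706, chr10:80047166-80056439, 7 exons), the second selenoprotein, encodes the peroxidase that reduces lipid peroxides in membranes. Its FPKM was 263, 280.2 and 294 in Pro and 236, 239 and 247 in Baso, then 252, 232 and 244 in Poly and 121, 111 and 118 in Ortho. All 9 libraries before Ortho lay within 232 and 294, and the Ortho libraries lay far below. Gpx4 fell to 0.481 of its Poly level in Ortho (log2 fold change -1.05, SE 0.066, adjusted p = 3.46e-07), and the fall in Ortho vs Pro passed under each of the 23 alternatives, from -1.62 to -0.76 log2 with all libraries. The smaller falls in Baso (-0.21, adjusted p = 0.0176) and Poly (-0.20, adjusted p = 0.0202) compared with Pro equalled the shift of the median gene to within 0.02 log2. With hemoglobin left out they became 0.10 (adjusted p = 0.157) and 0.15 (adjusted p = 0.0433), and without Pro 3 neither fall passed (adjusted p = 0.0607 and 0.0684), nor without Baso 1 (0.0517) and Poly 2 (0.0814), respectively.

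Gclc (ENSMUSG00000032350, chr9:77754535-77794485, 16 exons) encodes the catalytic subunit of glutamate cysteine ligase. Its FPKM was 86.0, 97.7 and 87.5 in Pro and 92.6, 92.2 and 94.6 in Baso, then 79.5, 82.2 and 81.2 in Poly and 27.2, 28.9 and 29.2 in Ortho. Pro and Baso overlapped, Poly lay just below them, and every Ortho library was under 30 FPKM. Gclc fell to 0.351 of its Poly level in Ortho (log2 fold change -1.48, SE 0.064, adjusted p = 2.8e-08), and to 0.315 of its Pro level (log2 fold change -1.63, SE 0.064, adjusted p = 4.36e-09), under each of the 23 alternatives. Before Ortho its changes were small. Baso vs Pro was 0.04 (95% interval -0.10 to 0.19, adjusted p = 0.577) and Poly vs Pro -0.16 (adjusted p = 0.0507), and with hemoglobin left out both were above 0, at 0.36 (adjusted p = 0.00157) and 0.19 (adjusted p = 0.0365). Poly vs Baso was -0.20 (adjusted p = 0.0649, and 0.0238 with the replicate block over the later stages). Its spread within stages, 0.058 log2, was smaller than that of all but 1.66% of tested genes.

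Gclm (ENSMUSG00000028124, chr3:122245557-122270732, 7 exons) encodes the modifier subunit, which raises the activity of Gclc. Its FPKM was 100.4, 54.5 and 65.9 in Pro replicates 1, 2 and 3 and 113, 52.1 and 70.7 in Baso, then 93.0, 43.2 and 65.8 in Poly and 89.5, 84.6 and 80.3 in Ortho. Replicate 1 was the highest and replicate 2 the lowest at the 3 earlier stages, and the stages overlapped throughout. No contrast passed, and the interval of Ortho vs Pro, 0.25 log2, ran from -0.44 to 0.93 (adjusted p = 0.486). Gclm's spread within stages was 0.45 log2, larger than in 95.0% of tested genes. Of 6011 genes with a mean FPKM of at least 10, 57 had this order of replicates in Pro, Baso and Poly, and in 2, Gclm and Ighg2c, an antibody gene named after its values were seen, replicate 1 was at least 1.84 times replicate 2 in all 3 stages. Gm17494 and Gm6061 overlap Gclm.

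Gsr (ENSMUSG00000031584, chr8:33652523-33698163, 13 exons) encodes glutathione reductase. Its FPKM was 72.3, 90.0 and 82.6 in Pro and 117, 103 and 107 in Baso, then 141, 133 and 132 in Poly and 142, 113 and 137 in Ortho. The first 3 stages stepped upwards without overlap, and Ortho 2 fell back into the Baso range. Gsr rose 1.34-fold in Baso (log2 fold change 0.42, SE 0.1, adjusted p = 0.00438) and 1.6-fold in Ortho (log2 fold change 0.67, SE 0.1, adjusted p = 8.75e-05) compared with Pro, the first of which did not pass with every library brought to equal total FPKM (0.24, adjusted p = 0.084). From Baso to Poly it stood at 0.31 (adjusted p = 0.0676, 0.0157 with the replicate block over the later stages, and 0.0376 with hemoglobin left out), and from Poly to Ortho at -0.06 (95% interval -0.28 to 0.17). The order of its stage means, Pro, Baso, Ortho and Poly, was also that of the summed neutrophil markers, at means of 8374, 13922, 16844 and 18305. The sort named above was meant to leave neutrophils out, yet these markers were detected at every stage. Their part in the result was not tested.

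Each gene's stages were then placed in order of mean FPKM, to see which neighbours did not differ past the test. Baso and Poly did not for Cat, Prdx1, Prdx2, Gpx1, Gpx4, Sod1 and Sod2. Gclc did not pass between Poly and Pro or between Pro and Baso, nor Prdx2 between Pro and Poly, though all of these passed with hemoglobin left out. Nor did Prdx1 between Poly and Ortho, or Gsr between Baso and Ortho (adjusted p = 0.0590, 0.0118 with the replicate block over the later stages, and 0.00313 with hemoglobin left out) or between Ortho and Poly. For Gclm no neighbours passed. The other neighbours did, but the calls for Gpx1 between Baso and Ortho, Prdx1 and Prdx2 between Ortho and Pro, Gsr between Pro and Baso, Gpx4 between Poly and Pro, Sod1 between Ortho and Poly and Sod2 between Ortho and Baso were lost under alternatives given with each gene. Over all genes, 17.1% were higher and 28.8% lower in Ortho vs Baso, and 27.8% and 21.9% with hemoglobin left out.

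**Figure D2:**
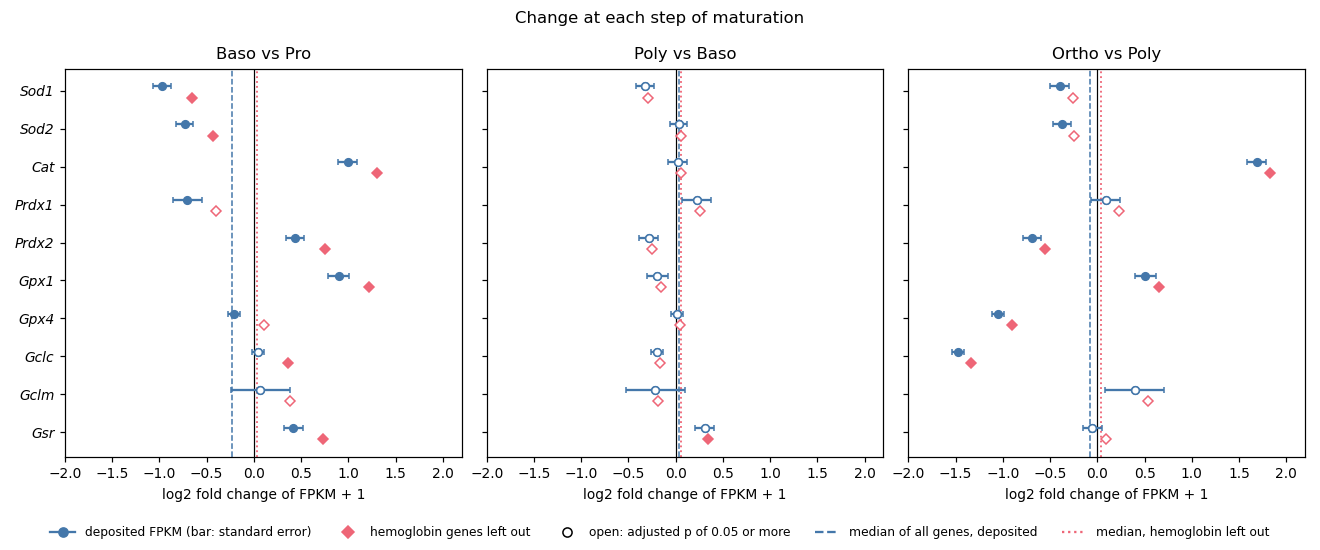
Log2 fold change of FPKM + 1 at each step of maturation (x axis) for the 10 genes (y axis), from deposited FPKM with its standard error (blue circles) and with hemoglobin genes left out (red diamonds), open where the adjusted p was 0.05 or more. Vertical lines give the median of all genes under both scalings. Cat moves at the first step (0.99) and the last (1.69), Gclc and Gpx4 chiefly at the last (-1.48 and -1.05), and Sod1 most at the first (-0.97).

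The steps thus differed between genes. From Pro to Baso the largest changes were those of Cat (0.99), Sod1 (-0.97), Gpx1 (0.90), Sod2 (-0.73) and Prdx1 (-0.71). From Baso to Poly no gene moved by more than 0.33 log2 in either direction. The replicate block over the 3 later stages gave 1 higher (Gsr) and 3 lower (Prdx2, Sod1 and Gclc). In that fit 12.6% and 9.44% of all genes were called. A block over all 12 libraries gave none. From Poly to Ortho the largest were Cat (1.69), Gclc (-1.48), Gpx4 (-1.05), Prdx2 (-0.70) and Gpx1 (0.51). Ortho was also represented by replicate 1 alone, an alternative chosen after seeing the data. It leaves no spread within Ortho, so only effect sizes are given. The median log2 change of the 10 genes was then -0.53 in Ortho vs Pro and -0.16 in Ortho vs Poly. Over all genes these medians were -0.40 and -0.06. In Ortho vs Poly, Sod1 stood at -0.42 and Sod2 at -0.33.

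A ratio of genes within a library does not depend on how that library was scaled, and 5 ratios between related enzymes were compared over the stages. They were tested by exact permutation of the 12 libraries among 4 stages (15400 ways, smallest p 6.49e-05). The statistic was the between-stage sum of squares of the log2 ratio, so a p covers any difference among the 4 stages, not a given pair. The p-values were adjusted over the 5 ratios. Gpx1 to Gpx4 was 0.572 ± 0.046 in Pro and 1.25 ± 0.20 in Baso, then 1.07 ± 0.037 (Poly) and 3.18 ± 0.19 (Ortho; SD, n = 3, exact adjusted p = 0.000325). Gpx1 thus went from the lower to the higher of the pair, and all Ortho libraries, at 2.98 to 3.34, were above all others. Gsr to Gclc was 0.902 ± 0.055, 1.17 ± 0.080, 1.67 ± 0.087 and 4.60 ± 0.64 in the same order (exact adjusted p = 0.000325), with no overlap between any stages, so that the transcript for recycling glutathione exceeded that for its synthesis in every library from Baso on.

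Prdx2 to Prdx1 was 16.7 ± 2.2 in Pro and 37.2 ± 2.9 in Baso, then 26.4 ± 6.1 in Poly and 15.1 ± 2.0 in Ortho (exact adjusted p = 0.000541). It was highest in Baso, and Pro and Ortho overlapped. Sod1 to Sod2 was 29.2 ± 3.7, 25.5 ± 4.3, 19.7 ± 1.1 and 19.8 ± 1.1 (exact adjusted p = 0.0196), so the cytosolic form fell relative to the mitochondrial one by Poly. Gclc to Gclm was 1.33 ± 0.47 in Pro and 1.31 ± 0.48 in Baso, then 1.33 ± 0.53 in Poly and 0.337 ± 0.030 in Ortho (exact adjusted p = 0.0196, and 0.0538 when stages were permuted only within replicate numbers). Within the first 3 stages the ratio was 0.821 to 0.857 in replicate 1, 1.77 to 1.90 in replicate 2 and 1.23 to 1.34 in replicate 3, and the 3 Ortho libraries, at 0.304, 0.342 and 0.364, were below all of these.

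**Figure D3:**
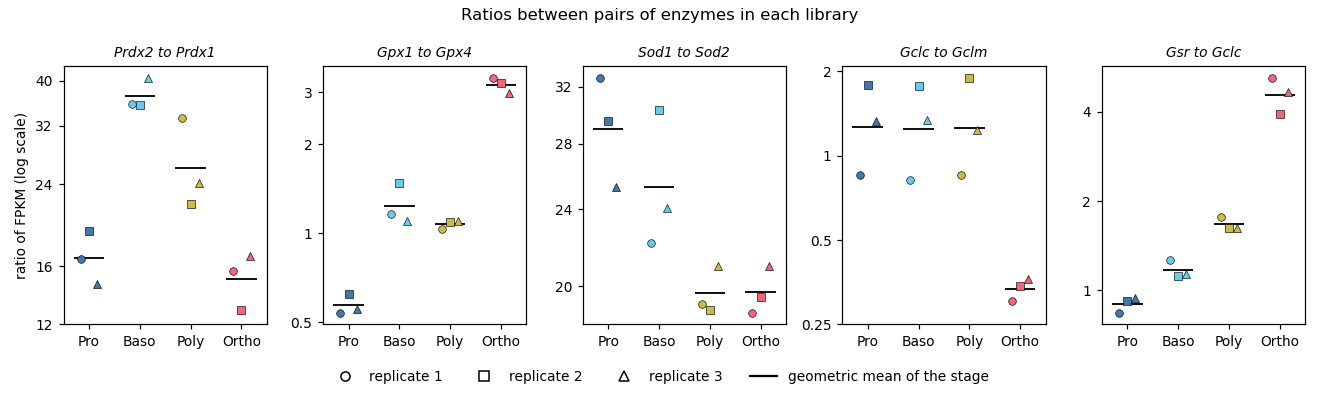
Ratio of FPKM between pairs of enzymes in each library on log axes (points, shaped by replicate number), with the geometric mean of each stage as a line. Gpx1 to Gpx4 and Gsr to Gclc are highest in Ortho (means 3.18 and 4.60), Prdx2 to Prdx1 peaks in Baso (37.2), and Gclc to Gclm falls in Ortho to 0.304 to 0.364.

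Genes around the 10 enzymes were counted by list in Ortho vs Pro, beside 22.7% higher and 53.2% lower over all genes, and the 3 largest changes of each list are named. Of 18 other peroxiredoxin and thioredoxin system genes, 6 were higher and 11 lower, with a median of -0.59. The largest changes were those of the mitochondrial proteins Prdx3 (150.5 FPKM in Pro and 59.8 in Ortho, log2 fold change -1.32), Txn2 (39.0 and 16.1, -1.25) and Glrx2 (11.5 and 4.38, -1.21), all with an adjusted p of 4.99e-05 or less. Of 24 further genes for glutathione synthesis, use and transport, 21 were tested, 7 higher and 9 lower. The glutathione transferases Gstm5 (84.2 and 9.71 FPKM, log2 fold change -3.02), Gsta4 (5.47 and 0.461, -2.12) and Gstp1 (146 and 35.9, -1.96) fell furthest. The higher ones were Chac1, Chac2, Slc3a2, Slc25a39, Gstm1, Mgst1 and Mgst2. Chac1 barely reached the filter's minimum of 1 even where it was highest (mean FPKM 0.342 for Pro, 1.05 for Ortho). Its call, counted among the 7, thus rests on values at that floor. Gss, the enzyme of the second step of glutathione synthesis, was among the lower ones.

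Of 14 genes listed around the supply of NADPH, which Gsr consumes, 13 were tested, 5 higher and 4 lower. Not all of them make NADPH themselves. Rpia, an isomerase of the pentose phosphate pathway, fell (109 and 25.8 FPKM, log2 fold change -2.03), as did the transketolase Tkt (278 and 164, -0.75), while the cytosolic isocitrate dehydrogenase Idh1 rose (16.1 and 28.5, 0.80). G6pdx and Pgd, the enzymes of that pathway that make NADPH, were among the higher ones. The median of this list was 0.03, beside -0.42 for all genes.

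Selenoproteins need dedicated factors to read TGA as selenocysteine, and not every gene of the list that follows need be one. All 7 genes listed under selenoprotein synthesis fell in Ortho vs Pro, with a median of -0.86. Their summed FPKM went from 128 to 154 in Pro to 69.9 to 76.9 in Ortho. Sepsecs, which makes selenocysteine on its transfer RNA, fell by 1.16 log2, Sephs1 fell by 0.94, and Eefsec, the elongation factor that carries it to the ribosome, fell by 0.86. When hemoglobin was left out 5 of the 7 were lower and none higher, beside 34.8% and 34.3% of all genes, and Eefsec did not pass (-0.42, adjusted p = 0.0787). Among 12 other selenoproteins 2 were higher and 5 lower, and Selenop (14.2 and 32.6 FPKM, log2 fold change 1.14), Selenow (87.2 and 38.9, -1.14) and Selenoh (55.0 and 27.3, -0.97) changed most. Leaving hemoglobin out gave 6 higher and 1 lower (all genes: 34.3% and 34.8%), and Selenoh did not pass (-0.49, adjusted p = 0.0737). Gpx1, which rose, and Gpx4, which fell, are both selenoproteins.

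Of 11 genes of superoxide, heme and quinone handling 10 were tested, 2 higher (Hmox1 and Msra) and 6 lower. Blvra, a biliverdin reductase (42.5 and 10.8 FPKM, log2 fold change -1.86), Park7 (159 and 57.5, -1.44) and Cyb5r3, a cytochrome b5 reductase that returns methemoglobin to hemoglobin (72.0 and 26.2, -1.42), fell furthest. Ccs, the copper chaperone of Sod1, was also lower. Of 10 transcription regulators of redox genes, 6 were higher and 3 lower, with a median of 0.69. Mafk, a small Maf protein that binds antioxidant response elements as a partner (35.4 and 92.2 FPKM, log2 fold change 1.35), and Foxo3, an activator of antioxidant genes (45.2 and 102, 1.17), rose, while Trp53 fell (87.2 and 39.3, -1.13). Nfe2l2 and its inhibitor Keap1 were both among the lower ones, and Nfe2l1, Mafg, Foxo1 and Hif1a among the higher ones. With hemoglobin left out, when 34.3% of all genes were higher and 34.8% lower, 7 regulators were higher and 2 lower, and the counts were 3 and 6 for superoxide, heme and quinone handling, 7 and 3 for NADPH supply, 8 and 7 for glutathione genes, and 7 and 9 for peroxiredoxin and thioredoxin genes.

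**Figure D4:**
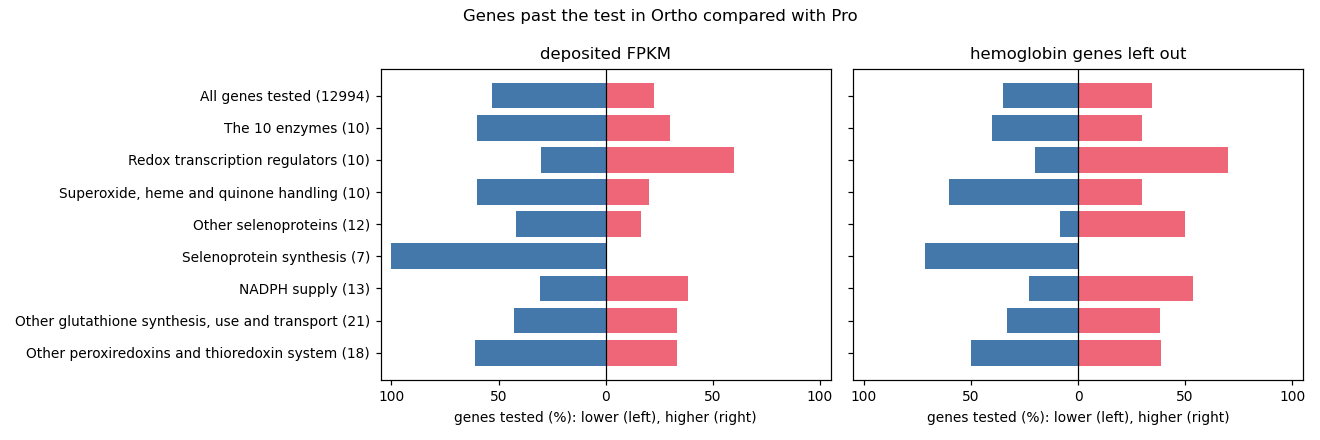
Share of tested genes of each list (number tested in brackets) that passed the test as higher (red, right) or lower (blue, left) in Ortho compared with Pro, from deposited FPKM and with hemoglobin genes left out. All 7 selenoprotein synthesis genes are lower with deposited FPKM and 5 with hemoglobin left out, and the regulators are mostly higher (6 of 10).

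Among 6001 other tested genes with a mean FPKM of at least 10, genes among the 3 most like each enzyme were found by Pearson r of log2(FPKM + 1) over the 12 libraries, which share 4 stages and are given as a description. Cat was like Ube2b and Xpo7 (r of 0.99 or more), Sod1 like Rpia, Eif3a and Dut, Gclc like Slc11a2, Parvb and Slc38a5, and Gpx4 like Ttll12, Fads1 and Cbx5. Prdx2 was like Ubac1, Odc1 and Slc25a38, Sod2 like Xpot, Prps1 and Adgrg1, Gsr like Tcn2, Rac2 and Dstn, and Gpx1 like Mettl7a1, 1810058I24Rik and St5 (r = 0.97). The values were lower for Prdx1 (Nudt16l1, r = 0.899) and Gclm (Atg2a, Ifi27 and Ighg2b, r of 0.82 or less). Slc11a2, the iron transporter nearest to Gclc (r = 0.997), had 47.7, 48.9, 43.7 and 10.2 FPKM from Pro to Ortho.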

How the data were processed

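RNA was sequenced from 12 libraries, 3 for each of 4 stages, and libraries were grouped by their titles. The labels name Trizol extraction and a NEBNext Ultra kit, and the methods a Geek lysis and KAPA Hyper Prep kit. The submitters' processing notes name cutadapt, Trimmomatic, HISAT2, SAMtools and featureCounts, with genome build mm10. Versions, annotation release, strand setting and the tool that made the FPKM are not given in the sources used here. The authors deposited 1 FPKM value per gene and library, and used DESeq2 on counts, which FPKM do not allow.

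The table held 29838 genes after 1 repeated identifier was removed. FPKM sums were 505624 to 691033 per library, 11964 to 12297 genes had an FPKM of at least 1, and Pearson r was 0.973 to 0.984 within and 0.846 to 0.976 between stages. Low values did not fall into steps (at most 8.84% of ratios in the commonest bin), so depth is unknown and precision rests on the spread between 3 libraries.

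Genes were tested with limma 3.58.1 (R 4.3.3) on log2(FPKM + 1), pseudocount 1, with a variance trend and all 12 libraries in 1 fit, two-sided, adjusted by Benjamini-Hochberg over 12994 genes, and the fit was tested on simulated data. A fold change is on this scale, which understates changes of low genes, and folds printed as such are ratios of mean FPKM. Ratios were tested by exact permutation. Alternatives were pseudocounts of 0.1 and 5, no filter, a mean FPKM of at least 5, rescaling to the same sum, leaving out hemoglobin genes, centring on the median, no variance trend, only the stages compared, replicate blocks, and each library left out. Replicate numbers were taken to pair Baso, Poly and Ortho, from the values alone: deviations from stage means of same-numbered libraries correlated at 0.156 to 0.319 there, but at 0.00524 to 0.0968 between Pro and the others.

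The genes and lists were chosen with earlier results of these data known. Named were the 10 enzymes, the 3 largest called changes in Ortho vs Pro of each list, the 3 genes most like each enzyme, and other called list members by name only. Some genes that this rule gives are not reported here. Positions, exons and coding sequences are from GENCODE M21, and promoters from RefSeq (GRCm38.p6). Python 3.11.15 was used for the rest.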

Additional observations from a re-analysis of the deposited data

How the results depend on the processing

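In Ortho vs Pro, Cat, Gpx1, Gsr, Sod1, Sod2, Gclc and Gpx4 kept their direction and passed under each of 23 alternatives. Counts of genes (higher and lower) that moved by over 1.5 times were as follows. With all libraries set to an equal FPKM total, 2 were higher in Baso vs Pro (8.89% of all genes). With hemoglobin left out, 2 were lower in Baso vs Pro (24.4% of all genes), 6 higher and 2 lower in Poly vs Pro (35.5% and 27.4%), 1 higher in Poly vs Baso (8.70%) and 3 lower in Ortho vs Poly (16.2%). Centring on the median gave 2 lower in each of Baso vs Pro, Poly vs Pro and Poly vs Baso (23.5%, 30.1% and 7.67% of all genes), and 3 lower in Ortho vs Poly (15.0%). A log2 change of at least 1 left 0 higher and 0 lower in Baso vs Pro, 1 and 1 in Poly vs Pro, and 1 and 2 in Ortho vs Poly. In Poly vs Baso, 1 gene was lower at a mean FPKM of at least 5, where 9% of all genes were. With only the stages compared, 1 was higher and 3 lower (5.96% and 5.81% of all genes). The replicate block over Baso, Poly and Ortho gave the same counts (12.6% and 9.44%). Leaving out 1 library gave 0 to 1 higher and 0 to 3 lower in Poly vs Baso. Calls appeared without Pro 1, Pro 2, Pro 3, Baso 1 or Ortho 2. The shares of all genes in those fits are not given here, so these counts have no background beside them. With Ortho represented by replicate 1 alone, the median log2 change of the 10 genes in Ortho vs Poly was -0.16, beside -0.06 for all genes. Gclc to Gclm was -1.92 log2 in Ortho vs Pro, with an exact adjusted p of 0.0538 under the replicate block, which over all 12 libraries otherwise changed 1 call, Gclc in Poly vs Pro (adjusted p = 0.0478).

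Values that reversed were small, though in Poly vs Pro Gpx4 went from a called fall to a called rise with hemoglobin left out (adjusted p = 0.0433). Gclc, not called in Poly vs Pro with deposited FPKM, was then called higher (adjusted p = 0.0365). The reversed values were as follows. With hemoglobin left out they were Prdx1 in Ortho vs Pro (0.090), Gpx4 in Baso (0.10) and Poly (0.15) vs Pro, Gclc (0.19) and Gclm (0.20) in Poly vs Pro, and Gsr in Ortho vs Poly (0.088). With centring they were the same contrasts at 0.0045, 0.085, 0.049, 0.092, 0.10 and 0.094, and in Poly vs Baso Cat (-0.024), Gpx4 (-0.036) and Sod2 (-0.017). With equal totals they were Prdx1 in Ortho vs Poly (-0.093), Prdx2 in Poly vs Pro (-0.036), Gclc (-0.13) and Gclm (-0.11) in Baso vs Pro, and Gclm in Ortho vs Pro (-0.12). With Ortho replicate 1 alone, Gsr in Ortho vs Poly was 0.067. Leaving out 1 library gave ranges across 0 for Cat (-0.053 to 0.077), Gpx4 (-0.014 to 0.044), Sod2 (-0.020 to 0.070) and Gclm (-0.48 to 0.080) in Poly vs Baso, Prdx1 (-0.076 to 0.19) and Gsr (-0.12 to 0.043) in Ortho vs Poly, and Gclm in Baso (-0.23 to 0.32) and Poly (-0.41 to 0.13) vs Pro. These rescalings act on all genes of a library at once, and the cause of the other changes was not tested. Depth is unknown, and 3 libraries per stage limit precision, most for Gclm.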
